A study of Rattus norvegicus with 8 samples.

Results

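Lipid uptake and efflux genes are the transcripts by which a macrophage takes in lipoprotein lipid, breaks it down, stores it and exports cholesterol. The set was fixed by name as Apoe, Abca1, Abcg1, Lpl, Fabp4, Fabp5, Plin2, Cd36, Msr1 and Lipa. The rule uses names and no measured value, but the set was proposed with earlier results of these data known. Matching to the gene name column of the count tables found 9 of these 10 among 32623 listed genes, each on 1 row. No row carries the name Cd36, the gene of a fatty acid translocase and scavenger receptor, and the expression of Cd36 was not analysed here. All 9 passed the minimum on expression that left 11682 genes for testing.

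RNA was sequenced from the outflow vein of 8 Sprague Dawley rats 21 days after an arteriovenous fistula (AVF) was made by joining the epigastric vein to the femoral artery. In 4 rats (3 females and 1 male) the vein was wrapped with a nanofiber scaffold loaded with β-aminopropionitrile (BAPN), which inhibits lysyl oxidase, the enzyme family that joins collagen and elastin fibers, and in 4 rats (2 females and 2 males) with a vehicle scaffold. Both groups therefore carried a fistula and a scaffold, and no vein without either was compared. BAPN 4, Vehicle 3 and Vehicle 4 were the males. The tissue is a bulk vessel wall, so that fewer cells of a type and less RNA per cell cannot be told apart in any value given here. The total count was 45039451 to 52241007 in BAPN libraries and 19548203 to 22442050 in vehicle libraries, so that depth separated the groups completely (ratio of the lowest BAPN to the highest vehicle total 2.01, exact two-sided permutation test, p = 0.0286, the smallest p that 4 against 4 allow). Whatever followed library preparation and depth cannot be told apart from treatment. The 9 genes were read at 672 to 363740 counts per library. The labels only number the replicates, and by the study's methods as many rats were assigned to sequencing as there are libraries.

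Macrophages in an injured vessel wall clear modified lipoproteins and cell debris through scavenger receptors. The cholesteryl esters they take up are hydrolyzed in lysosomes, and the freed cholesterol is either esterified again and stored in lipid droplets, which gives the foam cell its name, or exported by ABC transporters to apolipoproteins. Liver X receptors (LXR), which sense oxysterols, raise transcription of the exporters, and peroxisome proliferator-activated receptors (PPAR), which sense fatty acids, act on the fatty acid binding proteins, Lpl and Plin2. Several of these genes are not specific to macrophages: Fabp4, Lpl and Plin2 are also adipocyte genes, Fabp4 is made by capillary endothelium, and Abca1 is made by many cells of the vessel wall.

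Among the 9 genes, edgeR called 1 with higher expression in BAPN-treated veins, the fatty acid binding protein gene Fabp5, and 1 with lower expression, the cholesterol exporter gene Abca1. Over all tested genes 16.8% were called, 7.50% higher and 9.25% lower. DESeq2 called the same pair, against 27.4% of all genes. With sex as a covariate neither passed (FDR 0.0826 for Fabp5 and 0.0663 for Abca1), and with other scaling factors, another expression filter or thinned libraries Fabp5 was at 0.0503 to 0.0664, while with no expression filter it passed at 0.0499. Fabp5 was also the only member with all 4 BAPN rats above all 4 vehicle rats (12.7% of all genes), and Abca1 the only one with all 4 below (11.9% of all genes). The share of members called was thus close to that of all genes. The log2 fold change of BAPN against vehicle was above 0 in 7 of the 9 (median 0.50, against 0.02 over all tested genes) and did not pass the test in 7. Among females alone, Lpl, Lipa, Fabp4 and Msr1 turned to below 0.

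**Figure D1:**
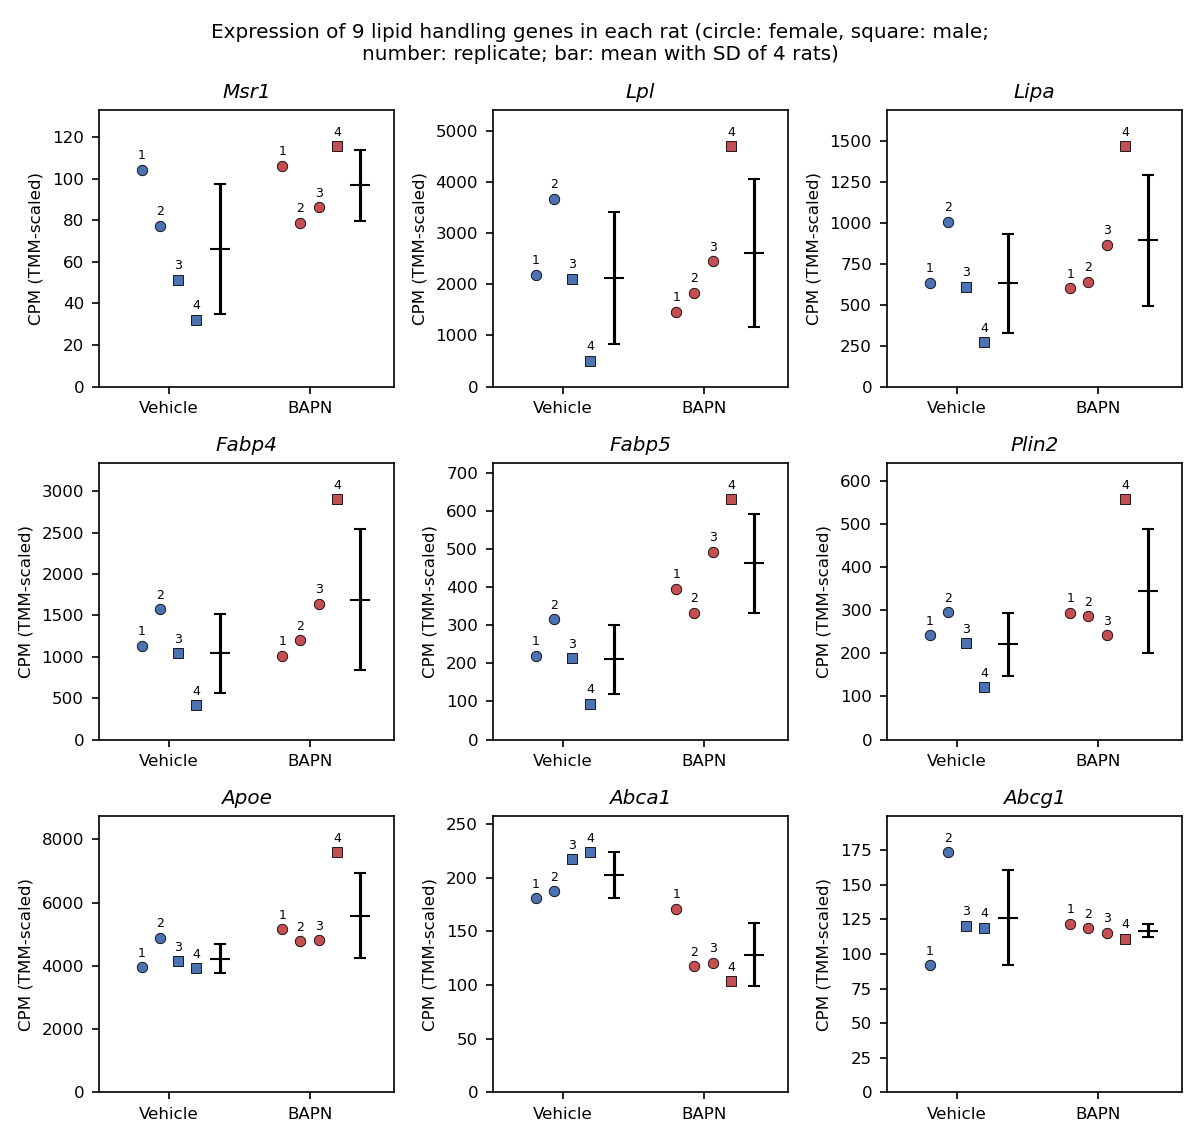
Normalized expression (CPM, vertical axes from 0) of each of the 9 genes in each rat, with circles for females, squares for males, the replicate number above each point, and bars for mean and SD of 4 rats. Fabp5 and Abca1 show no overlap between the groups, while BAPN 4 stands highest and Vehicle 4 lowest for most of the others.

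Uptake was represented by Msr1 (ENSRNOG00000012779), which encodes class A scavenger receptor, a macrophage receptor for modified low-density lipoprotein. Its expression was 106, 78.9, 86.4 and 116 CPM (counts scaled to a common library size, with TMM factors) in BAPN 1 to 4 and 104, 77.4, 51.4 and 32.1 CPM in Vehicle 1 to 4. Vehicle 1 lay within the BAPN range, Vehicle 2 just below it, and the vehicle males farther below. Group means were 96.7 ± 17.04 CPM for BAPN and 66.3 ± 31.4 CPM for vehicle (SD, n = 4 per group). On the log2 scale the change was 0.55 (standard error 0.32, edgeR FDR 0.238), with a 95% interval of -0.18 to 1.27.

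Lpl (ENSRNOG00000012181) encodes lipoprotein lipase, which releases fatty acids from triglyceride-rich lipoproteins. It showed the widest spread of the 9 genes. Expression was 1459, 1838, 2445 and 4692 CPM in BAPN 1 to 4 and 2188, 3665, 2107 and 506 CPM in Vehicle 1 to 4. BAPN 4 was highest and Vehicle 4 lowest, and the other 6 rats were mixed. Its log2 change was 0.30 (standard error 0.62, FDR 0.715), and its 95% interval of -1.09 to 1.69 held differences of more than a doubling in each direction. Within the females the value was -0.61.

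Lipa (ENSRNOG00000019077) encodes lysosomal acid lipase, the enzyme that hydrolyzes ingested cholesteryl esters. Expression was 602, 641, 868 and 1469 CPM in BAPN 1 to 4 and 636, 1007, 611 and 271 CPM in Vehicle 1 to 4. As with Lpl, the groups overlapped and the extremes were BAPN 4 and Vehicle 4. The change on the log2 scale was 0.50 (standard error 0.43, FDR 0.389, 95% interval -0.46 to 1.46). It was -0.22 within the females and -0.10 without BAPN 4 and Vehicle 4 together.

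Fabp4 and Fabp5 encode small cytosolic proteins that carry fatty acids, and in the RefSeq table of assembly GRCr8 they lie on the same chromosome with 6 annotated genes between them, 2 of them protein-coding. Fabp5 (ENSRNOG00000049075), the epidermal-type protein that macrophages also make, was at 396, 333, 493 and 631 CPM in BAPN 1 to 4 and at 221, 316, 213 and 93.6 CPM in Vehicle 1 to 4. All 4 BAPN values exceeded all 4 vehicle values, although BAPN 2 and Vehicle 2 were close. Its mean rose from 211 ± 91.0 to 463 ± 130 CPM (SD, n = 4 per group), or by 1.14 on the log2 scale (standard error 0.39, edgeR FDR 0.0495, DESeq2 FDR 0.00622, exact two-sided permutation test, p = 0.0286). The edgeR value sat just under the threshold. It passed among the fits that left out 1 rat only without Vehicle 2 (FDR 0.0275). Leaving out BAPN 1 gave 0.0698, BAPN 2 0.0551, BAPN 3 0.111, BAPN 4 0.113, Vehicle 1 0.108, Vehicle 3 0.0921 and Vehicle 4 0.0551. In all 8 of these fits the log2 fold change stayed between 0.89 and 1.40. It was 0.60 within the females (FDR 0.191) and 0.70 without BAPN 4 and Vehicle 4 together (FDR 0.0882).

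Fabp4 (ENSRNOG00000010805), the adipocyte-type protein of macrophages, adipocytes and capillary endothelium, was at 1014, 1199, 1644 and 2904 CPM in BAPN 1 to 4 and at 1134, 1572, 1040 and 413 CPM in Vehicle 1 to 4. The groups overlapped, again with BAPN 4 and Vehicle 4 at the ends. Its change was 0.70 on the log2 scale (standard error 0.46, FDR 0.269, 95% interval -0.33 to 1.74). The interval for Fabp4 contained the value of Fabp5, and the difference between these genes was not tested.

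Plin2 (ENSRNOG00000007060) encodes perilipin 2, a coat protein of lipid droplets found in many cell types. Its expression was 294, 285, 242 and 557 CPM in BAPN 1 to 4 and 242, 295, 223 and 122 CPM in Vehicle 1 to 4. Apart from BAPN 4 and Vehicle 4 the rats lay within 223 to 295 CPM with no order by group. Its log2 change was 0.64 (standard error 0.33, FDR 0.181, 95% interval -0.09 to 1.38), and without both of these rats, an alternative chosen after seeing the data, it was 0.11.

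Export was represented by 1 acceptor and 2 transporters. Apoe (ENSRNOG00000018454) encodes apolipoprotein E, which macrophages secrete and which accepts cellular cholesterol. It was at 5161, 4786, 4802 and 7592 CPM in BAPN 1 to 4 and at 3955, 4888, 4150 and 3924 CPM in Vehicle 1 to 4. BAPN 4 stood apart from the other BAPN rats, of which BAPN 2 and BAPN 3 were below Vehicle 2. The mean was 5585 ± 1349 CPM against 4229 ± 451 CPM (SD, n = 4 per group), a log2 change of 0.40 (standard error 0.20, FDR 0.204, 95% interval -0.05 to 0.86).

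Abca1 (ENSRNOG00000018126) encodes the transporter that loads cholesterol and phospholipid onto lipid-poor apolipoproteins, the first step in the formation of high-density lipoprotein. It ran the other way. Expression was 171, 117, 121 and 103 CPM in BAPN 1 to 4 and 181, 187, 217 and 224 CPM in Vehicle 1 to 4. All 4 BAPN values fell short of all 4 vehicle values, with BAPN 1 closest to the vehicle group. The mean fell from 202 ± 21.4 to 128 ± 29.5 CPM (SD, n = 4 per group), a log2 change of -0.66 (standard error 0.16, edgeR FDR 0.0306, DESeq2 FDR 0.00237, exact two-sided permutation test, p = 0.0286). With 1 rat left out, Abca1 passed without BAPN 1 (FDR 0.0198) or Vehicle 2 (FDR 0.0352). It did not pass without BAPN 2 (0.0653), BAPN 3 (0.0827), BAPN 4 (0.0692), Vehicle 1 (0.0630), Vehicle 3 (0.0640) or Vehicle 4 (0.0641), with log2 fold changes between -0.83 and -0.58 over the 8 fits. In the vehicle group the males (217 and 224 CPM) were above the females (181 and 187 CPM), and the change within the females was -0.43 (FDR 0.223).

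Abcg1 (ENSRNOG00000001158), the LXR target that passes cholesterol to mature high-density lipoprotein, did not follow Abca1. It was at 122, 119, 115 and 111 CPM in BAPN 1 to 4, with an SD of 4.72 CPM, and at 92.0, 174, 120 and 119 CPM in Vehicle 1 to 4. Vehicle 2 was the highest and Vehicle 1 the lowest of all rats. The log2 change was -0.11 (standard error 0.18, FDR 0.667), with a 95% interval of -0.52 to 0.29. The difference between the transporters was not tested.

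**Figure D2:**
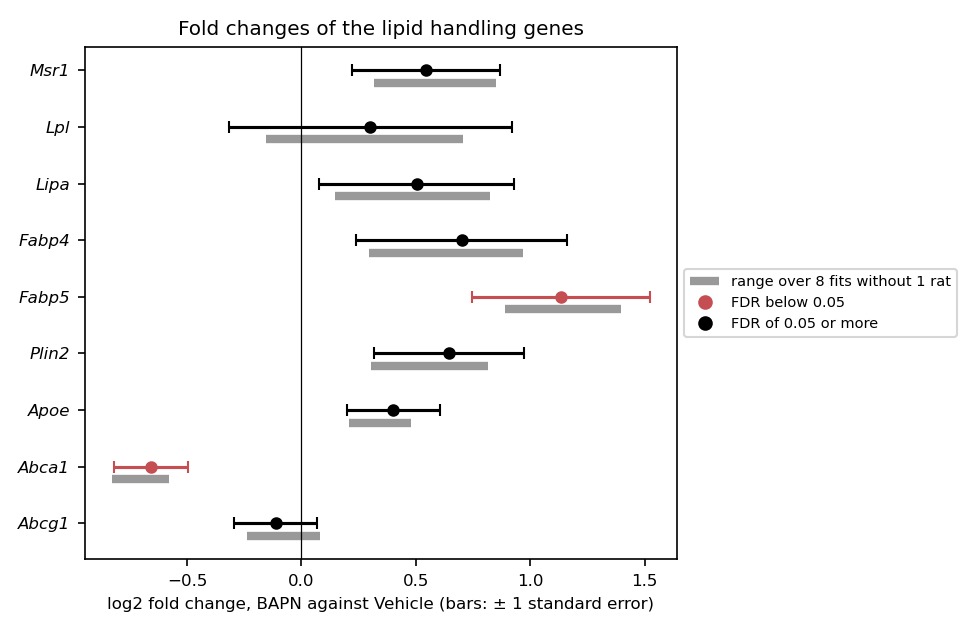
Log2 fold changes of BAPN against vehicle (horizontal axis) for the 9 genes with ± 1 standard error (limma-voom), red where the edgeR FDR was below 0.05, and grey bars for the range over the 8 fits that left out 1 rat. Fabp5 at 1.14 and Abca1 at -0.66 are the genes called, and the grey bars of Lpl and Abcg1 cross 0.

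Of the 10 genes, 5 have a promoter entry in the RefSeq table used here (GRCr8), namely Apoe, Abca1, Plin2, Cd36 and Lipa, with 8 windows among them. Those of Abca1, the member with lower expression, and Plin2, whose window also holds an E-box, are printed as the 250 bases before the annotated start, 5′ to 3′ on the minus strand, at chr5:72596474-72596723 and chr5:106229019-106229268 of GRCr8. Capitals mark the E-box CACGTG, a sequence bound by basic helix-loop-helix factors, and, in Abca1, the TATA box TATAAA.
Abca1: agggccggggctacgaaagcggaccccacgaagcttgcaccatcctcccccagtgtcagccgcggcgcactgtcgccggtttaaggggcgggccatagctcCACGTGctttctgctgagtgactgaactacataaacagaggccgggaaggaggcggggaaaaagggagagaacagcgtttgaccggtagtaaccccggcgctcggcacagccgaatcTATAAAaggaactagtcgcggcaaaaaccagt
Plin2: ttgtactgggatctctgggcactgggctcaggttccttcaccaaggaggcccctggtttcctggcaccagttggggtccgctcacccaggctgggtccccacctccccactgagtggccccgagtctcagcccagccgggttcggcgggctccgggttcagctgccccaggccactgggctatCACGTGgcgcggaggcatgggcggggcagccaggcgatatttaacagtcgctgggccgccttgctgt

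The E-box began 149 bases before the start in Abca1 and 67 bases before it in this Plin2 window, and the TATA box 32 bases before the start in Abca1. Among all 33469 promoter windows of this length, 5.59% held CACGTG (both strands, a palindrome) and 8.06% held TATAAA on the sense strand. The second Plin2 window and those of Apoe, Cd36 and Lipa held neither. A nuclear receptor half-site, AGGTCA on either strand, was in 14.1% of all windows and in none of the 8 windows here. The exact repeats of that half-site with 4 bases between them (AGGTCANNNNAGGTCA, the LXR type) or 1 base between them (AGGTCANAGGTCA, the PPAR type) were in 0.00299% and 0.0508% of all windows and in none of the 8. Exact repeats this rare would hardly be met in 8 windows, and inexact forms were not searched. Their absence therefore does not show that these promoters lack LXR or PPAR elements. These are matches of letters in short windows and say nothing of binding in these veins.

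Within the groups, some of these genes shared their order of rats and others did not. Across the 9 genes, BAPN 4 was the highest BAPN rat for 7 and Vehicle 4 the lowest vehicle rat for 7, while Vehicle 2 was the highest vehicle rat for 7. The BAPN 4 value was 9.28 times that of Vehicle 4 for Lpl, 7.03 times for Fabp4, 6.74 times for Fabp5, 5.43 times for Lipa and 4.57 times for Plin2. For Abcg1 the same ratio was 0.934 and for Abca1 it was 0.462. After the mean of each group was subtracted, the log2 CPM of Lpl, Fabp4, Lipa, Fabp5 and Plin2 had Pearson's r between 0.856 and 0.993 in all 10 pairs over the 8 libraries, as a description of libraries that share their depth and cell makeup. The 5 genes were grouped after their values were seen. Abca1 ran against them (r between -0.71 and -0.49 over 5 pairs), Abcg1 had r between -0.13 and 0.27 with the other members, and over all 36 pairs of members the median r was 0.67, with 28 above 0.

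**Figure D3:**
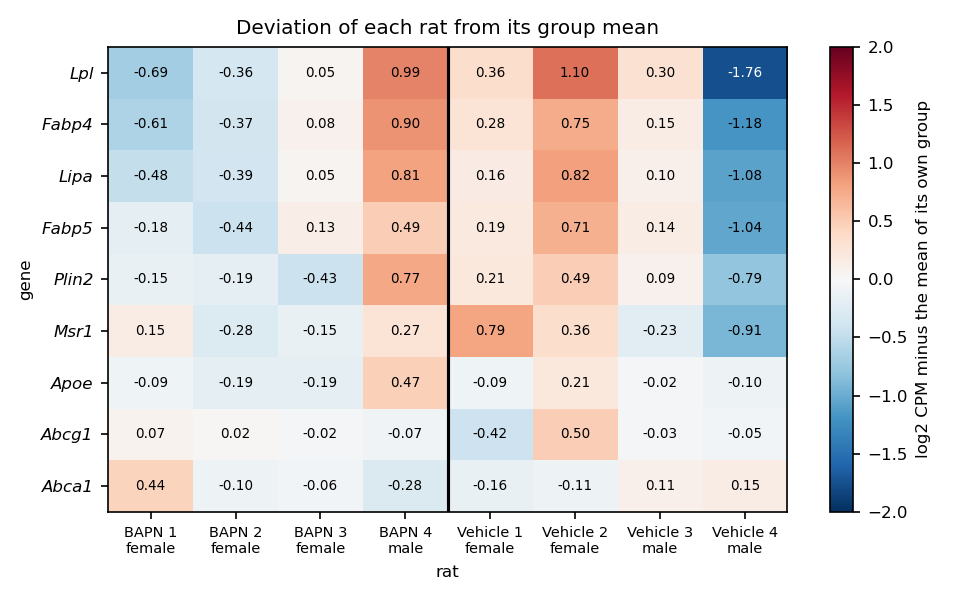
Deviation of each rat (columns) from the mean of its own group in log2 CPM, for the 9 genes (rows), red above and blue below the group mean, with the value in each cell. Lpl, Fabp4, Lipa, Fabp5 and Plin2 are above the group mean in BAPN 4 and Vehicle 2 and below it in BAPN 1, BAPN 2 and Vehicle 4.

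By the same measure, the 3 genes most like each member were taken from all tested genes with a name. Fabp4 and Lipa both had Tlnrd1 and Cela1 among theirs, with r of 0.9965 and 0.9915 for Fabp4 and 0.9925 and 0.9981 for Lipa. Lpl was nearest to Lilrb4, an inhibitory receptor of myeloid cells (r = 0.9956), Mettl7a and Ndufaf7. Fabp5 was nearest to Daglb (r = 0.9986), Dapp1 and Ptpn7, a pair of signaling genes of leukocytes. Plin2 was nearest to Eif4g3 (r = 0.990), Stx3 and Gsr, and Msr1 to Hipk2 (r = 0.9771), Zmiz1 and Derl1. Apoe was nearest to Blvra, which encodes biliverdin reductase (r = 0.9727), Pla2g2d and Clybl. The exporters had fewer close neighbors. Abca1 was nearest to Cnot3 (r = 0.9644), Slc10a7 and Exoc3l1, and Abcg1 to Tfpt (r = 0.9696), Epsti1 and Drg1. An r above 0.9 was reached by 20 genes for Abca1 and 25 for Abcg1 but by 442 to 530 of 11673 for Lpl, Fabp4, Lipa and Fabp5, so that with 8 libraries such values are common for these 4 genes.

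The rest of the lipid handling pathway was examined by 9 lists of genes. Of scavenger and lipoprotein receptors, 0 of 13 tested genes rose and 2 fell in edgeR (median log2 fold change -0.22), and 2 rose and 2 fell in DESeq2. Those that fell were Stab1, a scavenger receptor of sinusoidal endothelium and some macrophages (147 ± 33.1 CPM in vehicle and 57.2 ± 18.3 CPM in BAPN rats, SD, n = 4 per group, log2 change -1.36, standard error 0.24, FDR 0.0127), and Sort1, which encodes the sorting receptor sortilin (-0.94, standard error 0.21, FDR 0.0227). The other 2 that DESeq2 called, named after their values were seen, were higher in all 4 BAPN rats than in all 4 vehicle rats. They were Olr1, which encodes the oxidized lipoprotein receptor LOX-1 (0.90, edgeR FDR 0.0576, DESeq2 FDR 0.0159), and Cxcl16, a chemokine that also acts as a scavenger receptor (0.91, edgeR FDR 0.0541, DESeq2 FDR 0.0101). Of cholesterol efflux and LXR target genes, 0 of 13 rose and 2 fell in edgeR (1 and 3 in DESeq2, median -0.25), namely the LXR target and lipogenic regulator Srebf1 (from 62.4 ± 7.52 to 42.3 ± 3.18 CPM, -0.56, standard error 0.12, FDR 0.0181) and Abcg4, a relative of Abcg1 (-2.11, standard error 0.61, FDR 0.0424). The LXR genes themselves, Nr1h3 (log2 fold change 0.19, FDR 0.663) and Nr1h2 (0.14, FDR 0.580), did not pass. These 2 were named after their values were seen. For Stab1, Sort1, Srebf1 and Abcg4 the BAPN values all lay below the vehicle values. With 1 rat left out, Stab1 passed in all 8 fits, Srebf1 failed without Vehicle 1 (FDR 0.0539), Sort1 failed without BAPN 3, BAPN 4 or Vehicle 1 (largest FDR 0.0566), and Abcg4 passed without BAPN 2 or Vehicle 4 only (largest FDR 0.0965).

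Of lipases and their cofactors, 2 of 14 rose and 0 fell in edgeR (2 and 2 in DESeq2, median -0.07). Angptl4, the secreted inhibitor of lipoprotein lipase and a PPAR target, rose from 36.8 ± 8.97 to 80.7 ± 17.8 CPM (log2 change 1.13, standard error 0.23, FDR 0.0161) with all BAPN rats above all vehicle rats, and passed in all 8 fits that left out 1 rat. Lipg, which encodes endothelial lipase, rose from 9.68 ± 4.11 to 45.3 ± 35.3 CPM (2.23, standard error 0.79, FDR 0.0299), although BAPN 3 at 12.7 CPM lay below Vehicle 2 at 14.4 CPM. Lipg passed only without BAPN 2, BAPN 3 or Vehicle 2 (largest FDR 0.0855), and without BAPN 4 its log2 change dropped to 1.56 (FDR 0.0625). Of fatty acid transport and activation genes, 1 of 13 rose, the acyl-CoA binding protein gene Dbi (0.43, standard error 0.11, FDR 0.0300), and 0 fell (the same counts in DESeq2, median 0.18). Acsl5 (0.43, FDR 0.113) and Got2 (0.19, FDR 0.340), the highest of them in CPM, did not pass. Dbi passed only without BAPN 1, BAPN 2 or Vehicle 2 (largest FDR 0.0863).

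Of lipid droplet coat and neutral lipid synthesis genes, 0 of 15 rose and 1 fell in edgeR (0 and 4 in DESeq2, median 0.03). This was Plin1, the perilipin of adipocytes (log2 fold change -2.13, standard error 0.74, FDR 0.0443). It was at 61.3, 40.4, 27.5 and 4.54 CPM in Vehicle 1 to 4 and between 4.91 and 10.9 CPM in BAPN rats. Among the fits that left out 1 rat, it passed only without Vehicle 4 (FDR 0.00849, largest without Vehicle 1, 0.118). Plin1 passed with sex as a covariate (FDR 0.0389) and among females alone (0.0331), but not with the replicate number as a block (0.0820). Plin2 and Plin1 had opposite signs in their log2 fold changes, but only that of Plin1 passed and their difference was not tested. Soat1, which encodes the enzyme that esterifies cholesterol for storage (0.15, FDR 0.602), and Hsd17b11 (0.44, FDR 0.116) did not pass. Of lysosomal cholesterol export genes and lysosome regulators, 0 of 16 rose and 1 fell, the oxysterol-binding protein gene Osbpl5 (-0.85, standard error 0.23, FDR 0.0422, median of the list 0.08, 2 higher and 1 lower in DESeq2), which passed only without Vehicle 2 (largest FDR 0.111). Psap (0.30, FDR 0.349) and Lamp1 (0.02, FDR 0.914) did not pass.

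Of sterol synthesis genes, 2 of 20 rose and 0 fell in edgeR (4 and 1 in DESeq2, median 0.20). Idi1 rose from 12.0 ± 1.497 to 19.3 ± 3.35 CPM (log2 change 0.69, standard error 0.19, FDR 0.0268) and passed only without BAPN 1, BAPN 3 or Vehicle 2 (largest FDR 0.0664). Fdps (0.34, standard error 0.10, FDR 0.0499) passed in 0 of the 8 fits that left out 1 rat (FDR 0.0573 to 0.129). Of PPAR receptors and coregulators, 0 of 9 rose and 2 fell in edgeR (0 and 4 in DESeq2, median -0.32), among them the coactivator gene Ncoa2 (-0.95, standard error 0.23, FDR 0.0248). All 9 had a log2 fold change below 0. With 1 rat left out, Ncoa2 failed without BAPN 2 or Vehicle 1 (largest FDR 0.0687). With sex as a covariate Abcg4, Dbi, Osbpl5, Idi1 and Fdps no longer passed (FDR 0.0514 to 0.102). Pparg itself was at -0.10 (FDR 0.798, named after its value was seen). Of 15 lipid-associated macrophage genes, all had a log2 fold change above 0 (median 0.64), and 0 passed in edgeR (5 at an unadjusted p under 0.05) and 2 in DESeq2. Spp1, which encodes osteopontin, averaged 10613 ± 3365 CPM in BAPN rats against 5090 ± 2860 CPM (1.06, standard error 0.52, FDR 0.126), and Gpnmb at 5930 ± 2597 and 4062 ± 2043 CPM (0.55, standard error 0.48, FDR 0.393). In both genes BAPN 4 was highest (15341 and 9781 CPM) and Vehicle 4 lowest (1666 and 1470 CPM) of all rats. For Gpnmb the BAPN females (4131 to 5075 CPM) lay below the vehicle females (5370 and 5981 CPM). For Spp1 the BAPN females were mostly above (7879 to 10653 against 6956 and 7882 CPM). The genes of this list share their libraries, so their common direction is not 15 separate results.

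**Figure D4:**
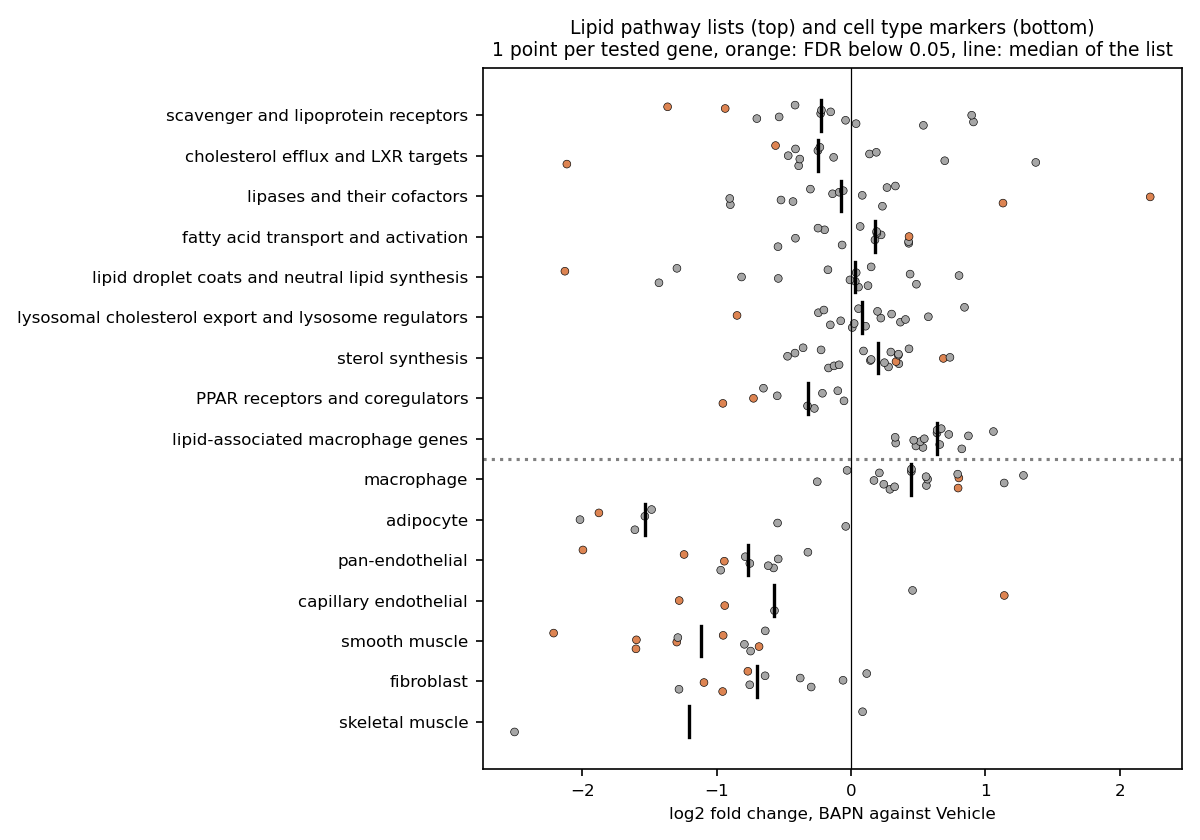
Log2 fold changes of BAPN against vehicle (horizontal axis) for the tested genes of each list, 1 point per gene, orange where the edgeR FDR was below 0.05, with a line at the median of each list, and a dotted line between the pathway lists above and the cell type markers below. The 15 lipid-associated macrophage genes all lie above 0. The PPAR receptors and coregulators and the adipocyte, smooth muscle and pan-endothelial markers all lie below 0. Genes of a list share their libraries and are not separate results.

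Markers of cell types that could carry these transcripts were summed in each rat over all markers found by name, tested or not. The macrophage and pan-endothelial sums did not overlap between the groups and those of the other 5 lists did. Their part in the values given here was not tested. Of 17 macrophage markers, 2 rose (Aif1 and Fcgr1a) and 0 fell in edgeR (5 and 0 in DESeq2), 15 had a log2 fold change above 0 (median 0.45), and their summed expression ran from 32169 to 45559 CPM in BAPN rats and from 7889 to 27515 CPM in vehicle rats, with no overlap. Most of that sum was Lyz2 (31549 ± 6195 against 12958 ± 6647 CPM, log2 fold change 1.28, FDR 0.0722), followed by Cybb (0.57, FDR 0.318). With 1 rat left out, Aif1 failed without Vehicle 1 (FDR 0.0525), and Fcgr1a passed without Vehicle 2 only (largest FDR 0.113). Without Lyz2 the sums overlapped, at 6911 to 9219 CPM with BAPN and 4027 to 8032 CPM with vehicle. Vehicle 4, the lowest vehicle rat for 7 of the 9 lipid genes, also had the lowest macrophage sum. BAPN 4, the highest BAPN rat for 7, had neither the highest sum (44192 CPM, against 45559 CPM in BAPN 3) nor the highest mean log2 CPM of the markers (8.44, the lowest of the BAPN rats). Without Lyz2, however, the sum of BAPN 4 (9219 CPM) was the highest of all rats.

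Of 7 adipocyte markers tested, 0 rose and 1 fell in edgeR (Slc7a10) and 5 fell in DESeq2, and all 7 had a log2 fold change below 0 (median -1.53). The sum over the 11 markers found was 276 to 438 CPM with BAPN and 307 to 776 CPM with vehicle, with overlap, most of it from Cfd (-0.55, FDR 0.316) and Cebpa (-0.04, FDR 0.929). The rat with the highest adipocyte sum was Vehicle 1, and BAPN 4, the highest for Lpl and Fabp4, was at 342 CPM. Of 10 pan-endothelial markers tested, 0 rose and 3 fell in edgeR (Vwf, Tek and Esam, median -0.77) and 5 in DESeq2, with sums over the 11 found of 524 to 746 CPM with BAPN and 913 to 1664 CPM with vehicle. Tie1 was at -0.32 (FDR 0.198) and Vwf at -1.99 (FDR 0.0389), with Vehicle 1 at 768 CPM against 106 to 269 CPM in the other vehicle rats. Without Vehicle 1, Vwf was at -1.13 (FDR 0.0670). Of 5 capillary endothelial markers tested, 1 rose (Rgcc) and 2 fell (Meox2 and Cxcl12, median -0.57, the same counts in DESeq2), with sums over the 7 found of 500 to 705 CPM and 587 to 719 CPM. Cxcl12 was at -0.94 (FDR 0.0417) and Sgk1 at 0.46 (FDR 0.290). With 1 rat left out, Tek, Rgcc and Meox2 passed in all 8 fits. Slc7a10 passed without BAPN 2, Vehicle 2, Vehicle 3 or Vehicle 4 only (largest FDR 0.0706), Vwf without Vehicle 2, Vehicle 3 or Vehicle 4 only (largest 0.0966), and Esam and Cxcl12 without BAPN 1 or Vehicle 2 only (largest 0.0689 and 0.0991).

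Of 10 smooth muscle markers, 0 rose and 6 fell (median -1.12, the same counts in DESeq2), with sums of 1681 to 4297 CPM with BAPN and 3366 to 6136 CPM with vehicle, led by Tagln (-0.64, FDR 0.217) and Acta2 (-0.75, FDR 0.260). Of 10 fibroblast markers, 0 rose and 3 fell in edgeR (Fbln1, Cd34 and Scara5, median -0.70) and 6 in DESeq2, with sums of 3874 to 5801 CPM and 4609 to 9450 CPM, led by Dcn (-0.30, FDR 0.312) and Lum (-0.06, FDR 0.915). The smooth muscle markers Lmod1, Myh11 and Synpo2 passed in all 8 fits that left out 1 rat, while Smtn passed in 4 (largest FDR 0.0699) and Cnn1 and Des in 3 (largest 0.0782 and 0.0681). Of the 6, only 3 passed without BAPN 3, BAPN 4 or Vehicle 3. Fbln1 failed without BAPN 3 or Vehicle 1 (largest FDR 0.0583), Cd34 passed without BAPN 1, BAPN 2 or Vehicle 2 only (largest 0.0908) and Scara5 without BAPN 1 or Vehicle 2 only (largest 0.111). Of 2 skeletal muscle markers tested, Tnnt3 (0.09, FDR 0.830) and Acta1 (-2.50, FDR 0.0843), 0 passed in edgeR (1 at an unadjusted p under 0.05) and 1 in DESeq2, and the sums over the 8 found were 17.9 to 31.4 CPM and 18.2 to 73.0 CPM. No listed marker was at 0 in all 8 libraries. With sex as a covariate Fcgr1a, Esam, Cxcl12, Cnn1, Des, Smtn, Cd34 and Scara5 no longer passed (FDR 0.0507 to 0.0861). Called markers outside the 2 most abundant of each list were named after their values were seen.

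Set against the mean log2 CPM of the 17 macrophage markers in the same library, a scale chosen after seeing the data, Abca1 was lower by 1.19 with BAPN and Abcg1 lower by 0.59, each with all 4 BAPN rats below all 4 vehicle rats. On this scale 22.1% of all tested genes had all BAPN rats below and 0.445% had all above, and the median over all tested genes was -0.49, so that Abcg1 lay near the median gene. On that scale the log2 difference of BAPN minus vehicle was 0.71 for Fabp5, 0.22 for Fabp4, 0.15 for Msr1, 0.12 for Plin2, 0.04 for Lipa, -0.05 for Lpl and -0.13 for Apoe, and the groups overlapped for these 7 genes. For Fabp5 the overlap was narrow, with BAPN 1 at -0.17 and BAPN 2 at -0.16, next to Vehicle 3 at -0.16. The marker mean itself was higher by 0.51 with BAPN and overlapped between the groups (8.44 to 8.80 against 7.71 to 8.53).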

How the data were processed

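The authors deposited, per library, whole-number read counts for each rat Ensembl gene with its name, without normalization. The submitters' processing notes name bcl2fastq 2.17, Trim Galore and STAR. The libraries were stranded and ribosomal RNA-depleted. The counting tool, strand setting and genome build are not given in the sources used here, so no coordinates are given for the counted genes (promoter windows are in GRCr8, from RefSeq) and reads shared between similar genes could not be traced.

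Groups and replicate numbers came from the sample titles. Testing was limited to genes whose base mean reached 100 (mean count over DESeq2 size factors, as in the study's methods). They were tested with edgeR 4.0.16 (TMM, quasi-likelihood F test, treatment only) in R 4.3.3, with Benjamini-Hochberg adjustment over all of them (FDR, threshold 0.05). Standard errors and 95% intervals used limma 3.58.1 (voom). DESeq2 1.42.0 was an alternative. CPM are TMM-scaled, and log2 CPM used a prior count of 2. Of the steps, only the edgeR fit was tested on simulated counts. Within groups no pair of libraries matched within counting noise (chi-square per degree of freedom 68.6 to 321). Named genes are all members, the called genes of each pathway list with the largest change (up to 4) or, where fewer than 2 were called, the 2 highest in CPM as well, the 2 highest markers of each cell type, and the 3 genes most correlated with each member. Members and lists were chosen with earlier results of these data known. Of the list names, Apoc1, Arl4c, Tusc5, Pecam1, Car4, Myh1 and Myh2 matched no row and were not analysed here. Some genes that these rules would name are not reported here.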

Additional observations from a re-analysis of the deposited data

Results flagged for a closer look

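In 2 of 32 groups of 4 rats (9 genes and 7 marker sums, 2 groups each), the highest rat lay farther from the rest than Dixon's 95% critical value for the gap over the range allows, and chance alone flags about 1 in 20 groups. Apoe was at 7592 CPM in BAPN 4 (gap over range 0.866), against 4786 to 5161 CPM in the other BAPN rats. Plin2 was at 557 CPM in BAPN 4 (0.835), against 242 to 294 CPM. BAPN 4 was the only male of its group, so its sex and the animal cannot be told apart.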

How the results depend on the processing

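The 9 genes were refitted under 19 alternatives, 18 of them planned. Apoe and Plin2 kept their sign and passed in 0 of the 19, but among females their log2 changes were 0.15 and 0.03, against 0.40 and 0.64. Fabp5 stayed higher (FDR 0.00622 to 0.191) and Abca1 lower (FDR 0.00237 to 0.223) in all 19. The number of members called higher was 0 with RLE, upper-quartile or no scaling factors (FDR of Fabp5 0.0513, 0.0508 and 0.0664), with filterByExpr (0.0524), with libraries thinned to the smallest total (0.0503), and, together with 0 called lower, with sex as a covariate (FDR 0.0826 for Fabp5 and 0.0663 for Abca1), among females alone (0.191 and 0.223), and without BAPN 4 and Vehicle 4 together (0.0882 and 0.108), an alternative chosen after seeing the data. With the replicate number as a block 0 members were called either way (0.132 and 0.0836) and 556 of all genes. Deviations of same-numbered rats from their group means had r of 0.09, -0.26, 0.27 and -0.14. With 4 rats per group such values cannot show whether the numbers mark pairs, and the labels do not say. Why calls were lost under the block was not tested. Over the fits without 1 rat the members called higher and lower each ranged from 0 to 1. All genes called numbered 1957, with 3202 by DESeq2, 930 with sex, 89 among females, 438 without BAPN 4 and Vehicle 4, and 397 (without Vehicle 1) to 2215 (without Vehicle 2) with 1 rat left out. Without scaling factors 504 were higher and 1161 lower, against 876 and 1081.

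Directions of uncalled members turned in these cases. Lpl was at -0.61 among females, -0.15 without BAPN 4, -0.02 without Vehicle 4 and -0.48 without both. Lipa was at -0.22 among females and -0.10 without both, Fabp4 at -0.074 and Msr1 at -0.0064 among females, and Abcg1 at 0.079 without Vehicle 2. With 1 rat left out, Lpl ranged from -0.15 to 0.70, Lipa from 0.15 to 0.82 and Abcg1 from -0.24 to 0.079. Fabp4 ranged from 0.30 (without BAPN 4) to 0.97, Plin2 from 0.30 (without BAPN 4) to 0.82, Msr1 from 0.32 (without Vehicle 4) to 0.85 (without Vehicle 1) and Apoe from 0.21 (without BAPN 4) to 0.48. The causes were not tested. The members had 672 counts or more in every library, and 4 against 4 cannot give an exact permutation p below 0.0286, a limit that does not apply to edgeR.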
